A study of Xenopus laevis with 20 samples.

Results

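Transcripts of the myogenic factors myod1 and myf5 and of the paraxial mesoderm factors tbx6 and msgn1 were examined in whole Xenopus laevis embryos. Members were the probe sets whose gene symbol in the platform annotation, after removal of a final .L or .S, is 1 of these 4 names. This gave 5 of the 15491 gene probe sets, with 1 each for myod1.L, myod1.S, myf5.L, tbx6.L and msgn1.L. The endings .L and .S name the homeologs, the copies of a gene kept from the parental subgenomes of this allotetraploid frog. Both copies were thus read for myod1, and the .L copy alone for the other 3 genes. All 5 probe sets were above log2 4 in all 20 arrays, so all 5 passed the filter on low values. The T-box gene tbx6r.L has another name and is no member.

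Paraxial mesoderm lies beside the notochord and later forms the somites, from which the body muscle arises. MyoD, the product of myod1, and Myf5 are basic helix-loop-helix transcription factors that commit mesodermal cells to the muscle fate. In the frog both genes are switched on during gastrulation, before the somites form. Tbx6 is a T-box transcription factor and mesogenin, the product of msgn1, a basic helix-loop-helix factor; both mark unsegmented paraxial mesoderm and are needed for its proper segmentation. FGF and Wnt signals and the T-box factor brachyury keep this tissue in its posterior state.

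Embryos were collected at stage 13, the early neurula. Per the labels, 10 arrays held uninjected sibling embryos (controls 1 to 10), 5 held embryos that received Xrx1 mRNA made in vitro (mRNA 1 to 5) and 5 held embryos that received MoXrx1, a morpholino meant to block translation of Xrx1 (morpholino 1 to 5). Xrx1, now named rax, is a homeobox gene of the eye field, the anterior neural tissue that forms the eyes. Injections went into both dorsal cells at the 4-cell stage, each together with mRNA for the tracer GFP, green fluorescent protein. Per the labels each array held RNA of 3 embryos, while the series text speaks of single embryos. The dose is not settled: Xrx1 mRNA is put at 50 pg in some fields and 50 ng in others, GFP mRNA at 400 pg or 400 ng, and the morpholino at 0.5 pmol, 10 pg or 1 pM. There was no group with tracer alone, so an effect of the injection or of GFP and an effect of Xrx1 cannot be told apart. In whole embryos, a change in the number of paraxial cells and a change in RNA per cell cannot be told apart either. Nothing in the labels says that the arrays came from separate clutches, so the p-values speak of array-to-array spread, which may be technical.

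The tracer went against the labels of 8 arrays. A control probe set taken as the tracer, AFFX-Xl-M62653-1_s_at, was at 13.12 to 14.51 (log2) in mRNA 1 to 5 and at 3.04 to 3.32 in controls 1 to 5. It was at 13.84 to 14.51 in controls 6 to 9 and at 2.89 in control 10, while it was at 2.80 to 2.95 in morpholino 1 to 4 and at 14.82 in morpholino 5. Arrays stayed in the groups of their labels, and wherever controls 6 to 10 or arrays labelled morpholino enter a comparison its direction is not settled. The labels name no array sets. From label and number, controls 1 to 5 with mRNA 1 to 5 were taken as the first set. Controls 6 to 10 with the arrays labelled morpholino were taken as the second. The rax.L probe set was at 6.68 to 8.38 in controls 1 to 5, 3.09 to 5.23 in mRNA arrays, 3.78 to 6.61 in controls 6 to 10 and 3.73 to 7.21 in arrays labelled morpholino. The probe sets of rax.S disagreed: 1 was at 4.72 to 5.68 in controls 1 to 5 and higher, at 5.53 to 7.65, in mRNA arrays, and the other was at 4.15 to 6.03 and at 2.91 to 4.42. In controls 6 to 10 both lay between 3.09 and 3.44, and in arrays labelled morpholino between 3.00 and 4.97. The labels give 1 tissue, the whole embryo; each of 6 fixed marker lists for other embryonic tissues, from organizer to neural crest, had at least 8 genes above the filter.

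The first comparison asks whether paraxial and muscle factors differ after injection of Xrx1 mRNA. It used mRNA 1 to 5 and the controls that carry the same numbers. All 5 member transcripts had higher means in mRNA arrays, by 1.31-fold to 1.84-fold, and none of the 5 differences passed the test across all probe sets. Pairs 2 and 3 held the larger differences for every member. The groups overlapped for all 5 members, while 0.652% of probe sets tested were higher in every mRNA array than in any of these controls.

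**Figure D1:**
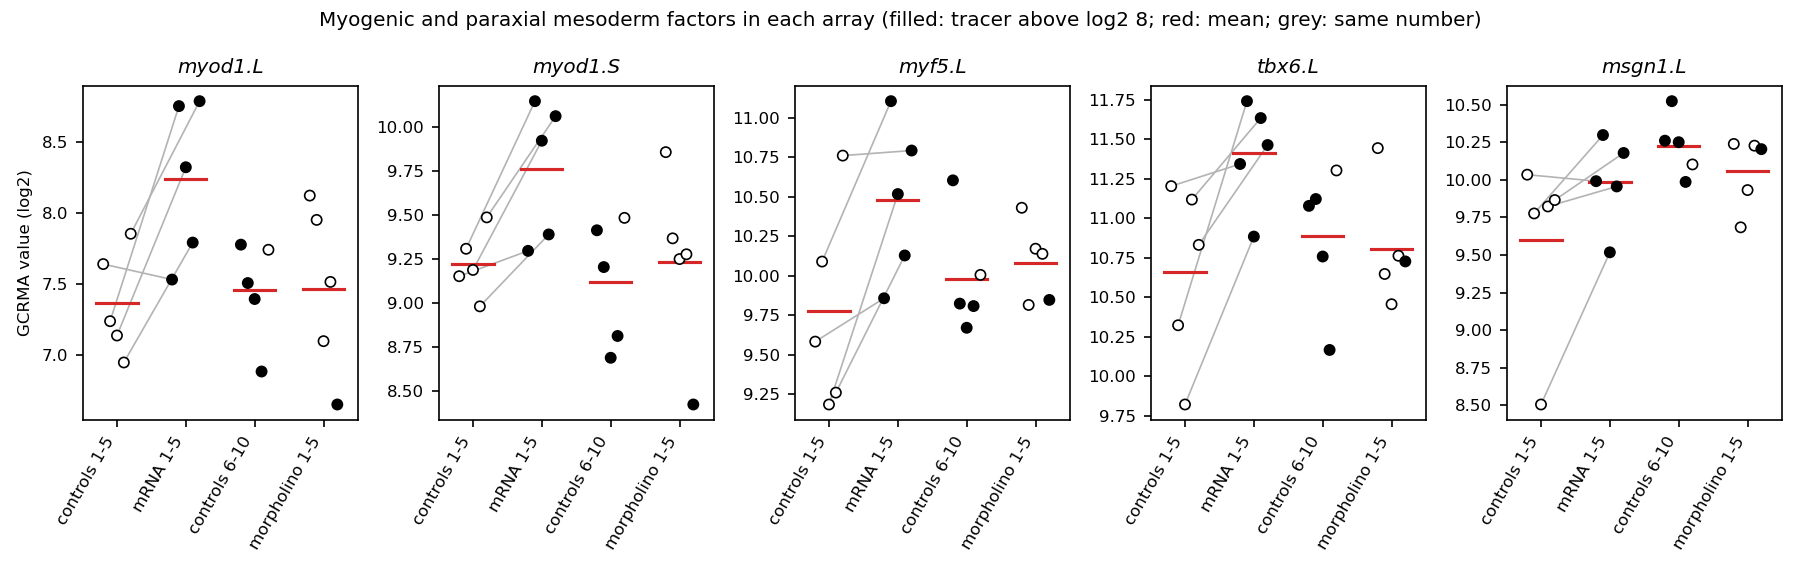
GCRMA values (log2) of the 5 member probe sets in each of the 20 arrays, in 1 panel per probe set with its own vertical range. Points are arrays, filled where the tracer probe set was above log2 8, red bars are group means of 5 arrays and grey lines join a control to the mRNA array of the same number. Of the 5 mRNA arrays, 3 lie above the highest of controls 1 to 5 for myod1.L and myod1.S, 4 for tbx6.L, and 2 for myf5.L and msgn1.L.

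The myogenic factor myod1.L was at 7.64, 7.24, 7.14, 6.94 and 7.85 (log2) in controls 1 to 5. In mRNA 1 to 5 it was at 7.53, 8.75, 8.32, 7.79 and 8.79. The arrays mRNA 2, 3 and 5 lay above every control of this set, while mRNA 1 and 4 lay within the range of the controls. The mean level was 7.36 ± 0.37 (SD, n = 5) in these controls and 8.24 ± 0.57 (SD, n = 5) in mRNA arrays, a log2 difference of 0.88 ± 0.27 (SE; 1.84-fold; limma, adjusted p = 0.635).

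The other copy, myod1.S, was at 9.15, 9.31, 9.19, 8.98 and 9.49 in controls 1 to 5. It was at 9.30, 10.15, 9.92, 9.39 and 10.06 in mRNA 1 to 5. The same 3 mRNA arrays, numbers 2, 3 and 5, stood above all of these controls. Its log2 difference was 0.54 ± 0.19 (SE; 1.46-fold; limma, adjusted p = 0.635), from 9.22 ± 0.19 (SD, n = 5) to 9.76 ± 0.39 (SD, n = 5).

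The early myogenic factor myf5.L was at 9.58, 10.09, 9.19, 9.26 and 10.76 in controls 1 to 5. Its values in mRNA 1 to 5 were 9.86, 11.11, 10.52, 10.13 and 10.79. Of the mRNA arrays only mRNA 2 and 5 lay above the range of these controls, mRNA 5 by little over control 5. The means were 9.78 ± 0.66 (SD, n = 5) and 10.48 ± 0.50 (SD, n = 5), and the log2 difference was 0.70 ± 0.33 (SE; 1.63-fold; limma, adjusted p = 0.65).

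The presomitic T-box factor tbx6.L was at 11.20, 10.32, 9.82, 11.12 and 10.83 in controls 1 to 5. In mRNA 1 to 5 it was at 11.34, 11.74, 10.89, 11.64 and 11.46. Of the mRNA arrays only mRNA 3 fell within the range of these controls, and control 3 was the lowest of the 10 arrays. The log2 difference was 0.75 ± 0.27 (SE; 1.69-fold; limma, adjusted p = 0.635), from 10.66 ± 0.58 (SD, n = 5) to 11.41 ± 0.33 (SD, n = 5).

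The presomitic factor msgn1.L was at 10.04, 9.78, 8.50, 9.82 and 9.87 in controls 1 to 5. It was at 9.99, 10.30, 9.52, 9.96 and 10.18 in mRNA 1 to 5. Control 3 stood far below the other 9 arrays, which ran from 9.52 to 10.30. The log2 difference was 0.39 ± 0.28 (SE; 1.31-fold; limma, adjusted p = 0.742) and 0.11 ± 0.16 (SE; adjusted p = 0.896) without control 3.

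In this comparison limma called 0 of 10435 probe sets at an adjusted p under 0.05 (0%), and so 0 of the 5 members. At an unadjusted p under 0.05 there were 812 probe sets (7.78%), 421 of them higher in mRNA arrays (4.03%). The members among these 421 were myod1.L (p = 0.00835), myod1.S (p = 0.0151) and tbx6.L (p = 0.0176). The mRNA array was above its control in 5 of 5 pairs for myod1.S, myf5.L and tbx6.L, as it was for 7.89% of all probe sets tested, and in 4 of 5 pairs for myod1.L and msgn1.L. The median difference of the 5 members was 0.70, against 0.03 over all probe sets tested, of which 56.2% were above 0. The value of myod1.L exceeded that of 99.7% of probe sets tested, that of msgn1.L 94.5%, with the others in between. Ranked by p (limma) among the 10435, myod1.L stood at 132, myod1.S at 225, tbx6.L at 261, myf5.L at 868 and msgn1.L at 2653. When limma was given the pair number as a block it called 7 probe sets (0.0671%), all lower in mRNA arrays, and again 0 members. The blocked differences were 0.88 ± 0.22 for myod1.L, 0.54 ± 0.13 for myod1.S, 0.70 ± 0.20 for myf5.L, 0.75 ± 0.18 for tbx6.L and 0.39 ± 0.16 for msgn1.L (SE), with adjusted p from 0.268 to 0.336. All 5 were then at an unadjusted p under 0.05, as were 846 probe sets on the higher side (8.11%). The pairing behind the block was judged from these same values.

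The pairs did not contribute alike. In pair 1 the member differences ran from -0.11 (myod1.L) to 0.27 (myf5.L). In pair 2 they ran from 0.52 (msgn1.L) to 1.52 (myod1.L), and in pair 3 from 0.74 (myod1.S) to 1.33 (myf5.L). In pair 4 they ran from 0.13 (msgn1.L) to 0.87 (myf5.L). In pair 5 myf5.L differed by 0.03, and the rest by 0.31 (msgn1.L) to 0.94 (myod1.L).

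Measures of the arrays themselves also differed within the pairs. The mean of 42 control probe sets for bacterial and phage sequences was higher in the mRNA array in 5 of 5 pairs, by 0.21, 0.55, 0.40, 0.17 and 0.43 in pairs 1 to 5. With each array centred on these control probe sets the median of all probe sets tested moved to -0.32, and the member differences were 0.52 for myod1.L, 0.40 for tbx6.L, 0.35 for myf5.L, 0.19 for myod1.S and 0.04 for msgn1.L. All 5 stayed above 0 and above that median, but the 95% interval of each then spanned 0, and 0 were called. The unadjusted p (limma) ran from 0.0814 for myod1.L to 0.904 for msgn1.L. RNA quality was read from control probe sets for alpha actins, beta actin and Gapd, as the mean excess of the 3 prime over the 5 prime signal (log2). Alpha actins are muscle forms, and whether their part in this excess follows muscle transcripts or RNA quality was not tested. The mRNA arrays had 2.68 ± 0.81 (SD, n = 5) and controls 1 to 5 had 1.64 ± 1.27 (SD, n = 5). This excess was higher in the mRNA array in 3 of 5 pairs, by 1.92 in pair 2, 0.52 in pair 3 and 3.29 in pair 5. In the first set its r with the members ran from -0.03 (myf5.L) to 0.70 (tbx6.L). For the bacterial and phage mean r ran from 0.40 (msgn1.L) to 0.61 (myod1.L). The part of either measure in the member differences was not tested.

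**Figure D2:**
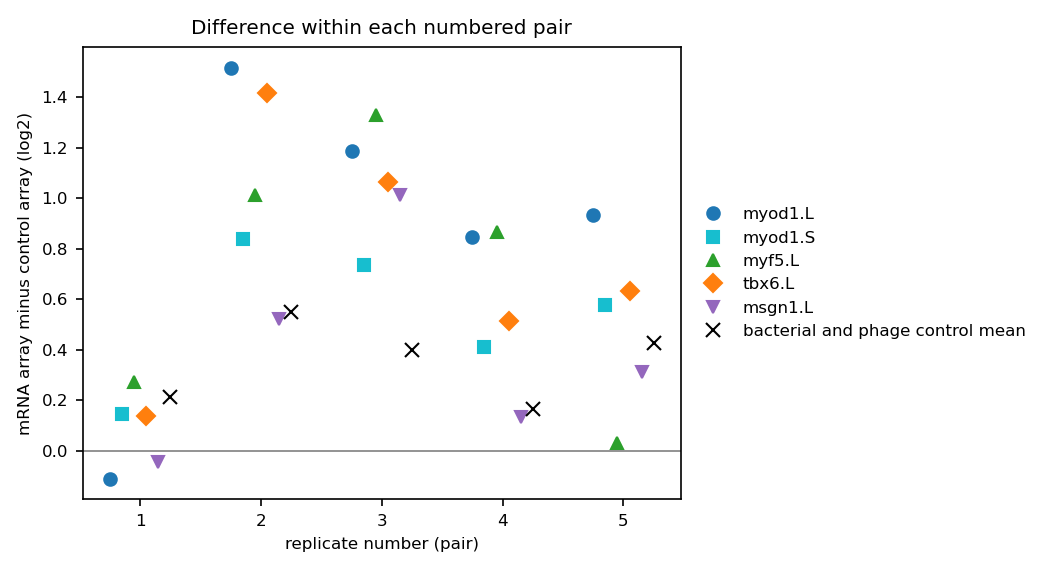
Difference between the mRNA array and the control array of the same number (log2, vertical axis) for each of 5 numbered pairs (horizontal axis), with 1 symbol per member probe set and a cross for the mean of 42 bacterial and phage control probe sets. In pair 1 the members lie between -0.11 and 0.27, and in pairs 2 and 3 between 0.52 and 1.52.

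The copies of myod1 were compared with each other within each array. In mRNA arrays the .L value minus the .S value was -1.53 ± 0.19 (SD, n = 5), and in controls 1 to 5 it was -1.86 ± 0.27 (SD, n = 5). The change in this difference, 0.33 toward .L, did not pass (two-sided exact permutation p = 0.0714, n = 5 against 5, where the smallest possible p is 0.00794). It was at p = 0.0317 without control 1 (0.42, exact permutation), and between 0.0635 and 0.143 without any other array. Over the 5 pairs the exact sign-flip p was 0.125, where the smallest possible is 0.0625. The probe sets differ in their sequences, so their levels give no ratio of the copies. Whether the probe set of 1 copy also reads the other was not tested.

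In the second set of arrays, by label, the means of controls 6 to 10 and of arrays labelled morpholino lay within 1 SD of each other for all 5 members. The myod1.L probe set was at 7.78, 7.51, 7.39, 6.88 and 7.74 in controls 6 to 10 and at 8.12, 7.95, 7.10, 7.51 and 6.65 in morpholino 1 to 5. The myod1.S probe set was at 9.41, 9.20, 8.69, 8.81 and 9.48 in these controls and at 9.86, 9.37, 9.25, 9.28 and 8.42 in morpholino 1 to 5. Morpholino 5, which carried the tracer, was the lowest of all 20 arrays for both copies, and morpholino 1, which did not, was the highest of the second set.

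For myf5.L the values were 10.60, 9.82, 9.67, 9.81 and 10.01 in controls 6 to 10 and 10.43, 9.82, 10.17, 10.14 and 9.85 in morpholino 1 to 5. For tbx6.L they were 11.08, 11.12, 10.76, 10.17 and 11.30 in controls 6 to 10 and 11.45, 10.65, 10.46, 10.76 and 10.73 in morpholino 1 to 5. For msgn1.L they were 10.26, 10.53, 10.25, 9.99 and 10.10 in controls 6 to 10 and 10.24, 9.68, 9.93, 10.23 and 10.21 in morpholino 1 to 5. The labelled groups overlapped for each of the 3 genes.

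By tracer state, which the labels do not give and which was therefore not tested, the second set held 5 arrays with the tracer (controls 6 to 9 and morpholino 5) and 5 without (control 10 and morpholino 1 to 4). The myod1.S probe set ran from 8.42 to 9.41 with the tracer (median 8.81) and from 9.25 to 9.86 without (median 9.37). The myod1.L probe set ran from 6.65 to 7.78 with it (median 7.39) and from 7.10 to 8.12 without (median 7.74). In the first set the arrays with the tracer are those labelled mRNA, where both copies had the higher mean. For tbx6.L the medians with and without the tracer were 10.76 and 10.76, for myf5.L 9.82 and 10.14, and for msgn1.L 10.25 and 10.10. All of these ranges overlapped.

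Across the 4 sets of 5 arrays, the mRNA arrays had the highest mean for 4 of the 5 members. Order among the remaining groups was not clear of their spread. The myod1.L mean was 8.24 ± 0.57 in mRNA arrays, then 7.47 ± 0.61 in arrays labelled morpholino, 7.46 ± 0.36 in controls 6 to 10 and 7.36 ± 0.37 in controls 1 to 5 (SD, n = 5 each). The exception was msgn1.L, with 10.23 ± 0.20 in controls 6 to 10, 10.06 ± 0.24 in arrays labelled morpholino, 9.99 ± 0.30 in mRNA arrays and 9.60 ± 0.62 in controls 1 to 5 (SD, n = 5 each). The step from controls 1 to 5 to controls 6 to 10, 9.60 to 10.23 for msgn1.L, exceeded that of the other 4 members in size.

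Against all 10 controls the mRNA difference was 0.83 ± 0.25 for myod1.L (SE; limma, adjusted p = 0.103), 0.59 ± 0.20 for myod1.S (adjusted p = 0.127), 0.60 ± 0.24 for myf5.L (adjusted p = 0.173) and 0.64 ± 0.23 for tbx6.L (adjusted p = 0.142). It was 0.08 ± 0.23 for msgn1.L (adjusted p = 0.881), and -0.08 without control 3. limma called 0 of 10435 probe sets here (0%), with 2124 (20.4%) at an unadjusted p under 0.05, and it called 0 members; 4 members were among the 803 that were higher at an unadjusted p under 0.05 (7.7%). With the 8 arrays of conflicting tracer left out, the differences were 0.81 for myod1.L, 0.50 for myod1.S, 0.67 for myf5.L, 0.65 for tbx6.L and 0.30 for msgn1.L, with 0 called. Against controls 6 to 10 alone, which lie in the other array set and of which 4 carried the tracer, 3256 probe sets were called (31.2%), 1213 of them higher (11.6%) and 2043 lower, with myod1.L (0.78, adjusted p = 0.0483) and myod1.S (0.64, adjusted p = 0.0417) among them.

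Arrays labelled morpholino differed from all 10 controls by 0.06 ± 0.25 for myod1.L (SE; 95% interval -0.46 to 0.57), 0.06 ± 0.20 for myod1.S (-0.35 to 0.48) and 0.20 ± 0.24 for myf5.L (-0.30 to 0.71). The difference was 0.03 ± 0.23 for tbx6.L (-0.45 to 0.52) and 0.14 ± 0.23 for msgn1.L (-0.34 to 0.63). By limma 0 of 10435 were called (0%), 928 had an unadjusted p under 0.05 (8.89%), and the members had adjusted p from 0.82 to 0.974. These intervals leave room for differences of either sign as large as 0.3 on the log2 scale. With the same 8 arrays left out, morpholino 5 alone stood for its group, with the spread of the other groups assumed for it; the differences were then -0.78 for myod1.L (adjusted p = 0.335), -0.85 for myod1.S (adjusted p = 0.148), 0.03 for myf5.L, -0.04 for tbx6.L and 0.52 for msgn1.L. Both comparisons with all controls share those controls.

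Between the injections, by label, myod1.L was higher in mRNA arrays by 0.77 ± 0.29 (SE; limma, adjusted p = 0.0727), tbx6.L by 0.61 ± 0.27 (adjusted p = 0.121), myod1.S by 0.53 ± 0.23 (adjusted p = 0.118) and myf5.L by 0.40 ± 0.28 (adjusted p = 0.326). The msgn1.L probe set differed by -0.07 ± 0.27 (adjusted p = 0.884). Here 1389 of 10435 probe sets were called (13.3%), 503 of them higher (4.82%) and 886 lower, and 0 of the 5 members. With arrays centred on their medians the split was 699 higher and 696 lower, and with centring on bacterial control probe sets 59 and 671; the sign of the 4 higher members was the same in both. By the array sets taken from label and number, the groups lie in different sets. Taken as the difference between each injection's own distance from the controls of its set, the values were 0.87 for myod1.L, 0.83 for tbx6.L, 0.61 for myf5.L, 0.56 for msgn1.L and 0.43 for myod1.S, with an adjusted p of 0.988 for each and 0 probe sets called. Without the 8 arrays 760 probe sets were called (7.28%), 421 of them higher (4.03%), and myod1.S was among these (1.34, adjusted p = 0.0317). There morpholino 5, the lowest array for myod1.S, alone stood for its group, with the spread taken from the other groups.

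**Figure D3:**
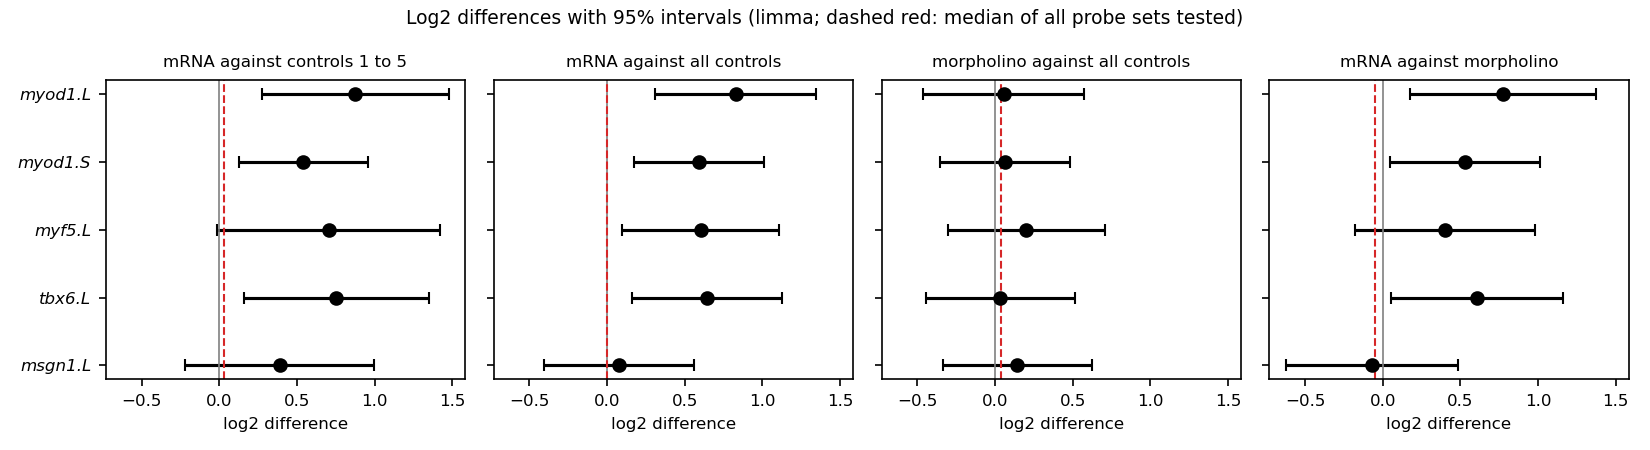
Log2 differences (points, horizontal axis) of the 5 member probe sets with 95% intervals (bars) from limma, in 1 panel per comparison by label; the dashed line is the median of all 10435 probe sets tested. The intervals of myod1.L, myod1.S and tbx6.L lie above 0 in the 3 panels with mRNA arrays, before adjustment, and all 5 intervals span 0 for arrays labelled morpholino.

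Members varied together to different degrees across the 20 arrays. The permutations exchanged all 20 arrays freely, across labels, array sets and numbered pairs, so differences between these also enter r and p. The copies of myod1 followed each other most closely of the 10 pairs of members computed (Pearson r = 0.91, Spearman rho = 0.90, permutation p = 1e-05 for both, the smallest that 100000 resamples can give; 0.0001 after adjustment over the 10 pairs). Their r was 0.96 in the first set, 0.86 in the second and 0.86 without the 2 arrays farthest from the median of myod1.L. Reading of both copies by the same probe set was not tested. In the arrays labelled control alone it was 0.68, below 0.72 for tbx6.L with msgn1.L and 0.69 for myf5.L with myod1.L. For myf5.L and myod1.S r was 0.74 (permutation p = 0.00021, adjusted 0.0007) and rho 0.83 (permutation p = 2e-05, adjusted 0.0001), with r 0.89 and 0.67 within the sets and 0.72 without 2 arrays. The paraxial factors tbx6.L and msgn1.L had r 0.61 (permutation p = 0.00418, adjusted 0.00836) and rho 0.48 (permutation p = 0.0362, adjusted 0.0603). Their r was 0.86 in the first set, 0.53 in the second and 0.37 without the 2 arrays farthest from the median of msgn1.L, so it leaned on those arrays, control 3 among them. The presomitic msgn1.L and the myogenic myod1.S had r 0.02 (permutation p = 0.915) and rho 0.04 (permutation p = 0.856). Their r was 0.37 in the first set and -0.05 in the second. Other pairs of a paraxial with a myogenic factor ran from r 0.19 (msgn1.L with myod1.L) to 0.64 (myod1.L with tbx6.L). For myod1.L with tbx6.L the permutation p of r was 0.00251 (adjusted 0.00627) and rho was 0.65. Their r was 0.58 and 0.69 within the sets and 0.51 without 2 arrays.

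**Figure D4:**
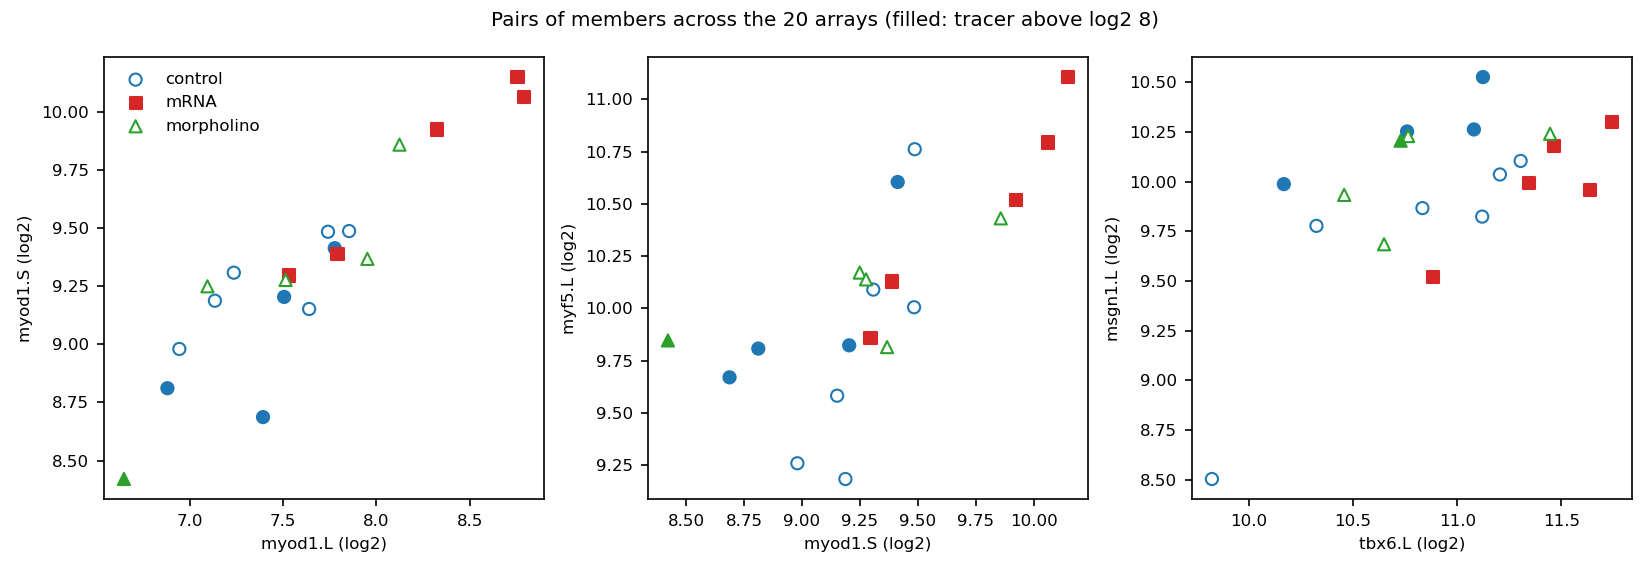
Levels (log2) of 3 pairs of member probe sets, with 1 point per array in each panel and the label given by shape and colour; filled points had the tracer probe set above log2 8. The copies of myod1 lie along 1 band through all 3 labels (r = 0.91 over 20 arrays), and control 3 lies at the lower left for tbx6.L and msgn1.L (9.82 and 8.50).

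Members aside, the genes most like each of the 4 over the 20 arrays were ranked by Pearson r, with that of the first set of 10 arrays given after it. For msgn1.L they were sp5l.S, an Sp-family zinc finger gene (0.92 and 0.93), evx1.L, a posterior homeobox gene (0.87 and 0.87), and exd2.L (0.86 and 0.98). For tbx6.L they were rbm38.L, an RNA-binding protein gene (0.85 and 0.92), rgs19.S (0.84 and 0.83) and myh10.S, a non-muscle myosin gene (0.84 and 0.89). For myod1.S, the copy with the higher mean, they were atxn2.L (0.81 and 0.96), fbrs.S (0.81 and 0.80) and the fibronectin gene fn1.S (0.80 and 0.71). For myf5.L they were the Hes-family gene hes7.2.L (0.78 and 0.87), dnal4.S (0.75 and 0.78) and rnf25.L (0.73 and 0.78). In the second set r was lower for the genes named for myf5.L, at 0.56 for hes7.2.L, 0.62 for dnal4.S and 0.66 for rnf25.L. Over all genes named here it ran there from 0.56 (hes7.2.L) to 0.94 (sp5l.S). Array set and labels are shared by all of these values.

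Other genes of the pathway were set beside the members in the first comparison, where 0 were called. Of 18 presomitic and somite genes tested, 11 were higher and 7 lower (median 0.11, against 0.03 for all probe sets). The brachyury gene tbxt.S was at 0.66 ± 0.26 (SE; limma, unadjusted p = 0.0268, adjusted p = 0.635) and the forkhead gene foxc2.S at 0.48 ± 0.25 (adjusted p = 0.666). Of 26 FGF, Wnt and caudal genes, 16 were higher (median 0.12). At an unadjusted p under 0.05 (limma) 7 were higher, as were 4.03% of all probe sets tested. Among these 7 were the ligand genes fgf8.L (0.66 ± 0.15, adjusted p = 0.635) and fgf20.L (0.80 ± 0.26, adjusted p = 0.635).

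Many, though not all, muscle structure genes are targets of the myogenic factors. Of 52 muscle structure genes measured, 21 passed the filter on low values, and of these 12 were higher and 9 lower (median 0.02). The mean log2 level of the 21 varied widely between arrays, from 6.85 to 8.30 in controls 1 to 5 and from 6.95 to 8.26 in mRNA arrays. It ran from 6.65 to 7.54 in controls 6 to 10 and from 5.64 to 8.38 in arrays labelled morpholino. Against all controls 14 of the 21 were higher in mRNA arrays (median 0.20, against -0.0031 over all probe sets), and the presomitic and somite median was -0.03. In the first comparison the muscle transcription factor gene mef2d.L was at 0.57 ± 0.18 (SE, limma, adjusted p = 0.635). There ckb.L, the gene for the brain type of creatine kinase, was at -0.67 ± 0.24 (adjusted p = 0.635). In that comparison 9 of 15 genes for partners and antagonists of myogenic factors were higher and 6 lower (median 0.10). Among them were myc.L at 0.27 ± 0.11 and zic1.S at -0.57 ± 0.25 (SE, limma, adjusted p = 0.635 for both). Between the injections, by label, 4 of 26 FGF, Wnt and caudal genes were called higher in mRNA arrays and 1 lower. Over all probe sets tested 4.82% were called higher. The genes named there by adjusted p were all higher, namely the Wnt effector gene tcf7l1.L (0.88, adjusted p = 0.018), fgf20.L (1.1, adjusted p = 0.0222) and wnt11.S (1.59, adjusted p = 0.0235), whose mean of 3.30 in arrays labelled morpholino lay under log2 4. Over all probe sets tested 886 of 10435 were called lower. Of the 18 presomitic and somite genes foxc2.S was called lower (-0.89, adjusted p = 0.0465), and of the 15 partners and antagonists both copies of snai2. These groups lie in different array sets, and relative to the controls of each set none of these genes was called (0 of 10435 probe sets). Against controls 1 to 5 foxc2.S was on the other side of 0, as given above.

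List medians of markers of other tissues in the same embryos differed in the first comparison, with 0 genes called. The median was -0.18 for organizer and axial mesoderm (11 of 16 genes lower), -0.39 for epidermis (5 of 8 lower), -0.18 for ventral and lateral mesoderm (12 of 19 lower), -0.09 for neural crest (6 of 9 lower), 0.10 for neural plate (9 of 12 higher) and 0.00 for endoderm (9 of 16 higher). The mean log2 level of the epidermis list ran from 9.78 to 10.33 in controls 1 to 5 and from 9.46 to 10.06 in mRNA arrays, and that of the neural plate list from 8.76 to 9.14 and from 8.90 to 9.22. The marker genes with the smallest p were zic2.L (0.54), otx2.L (-1.05) and otx2.S (-1.79), with an adjusted p of 0.635 for each (limma). The part of the markers in the member differences was not tested.

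**Figure D5:**
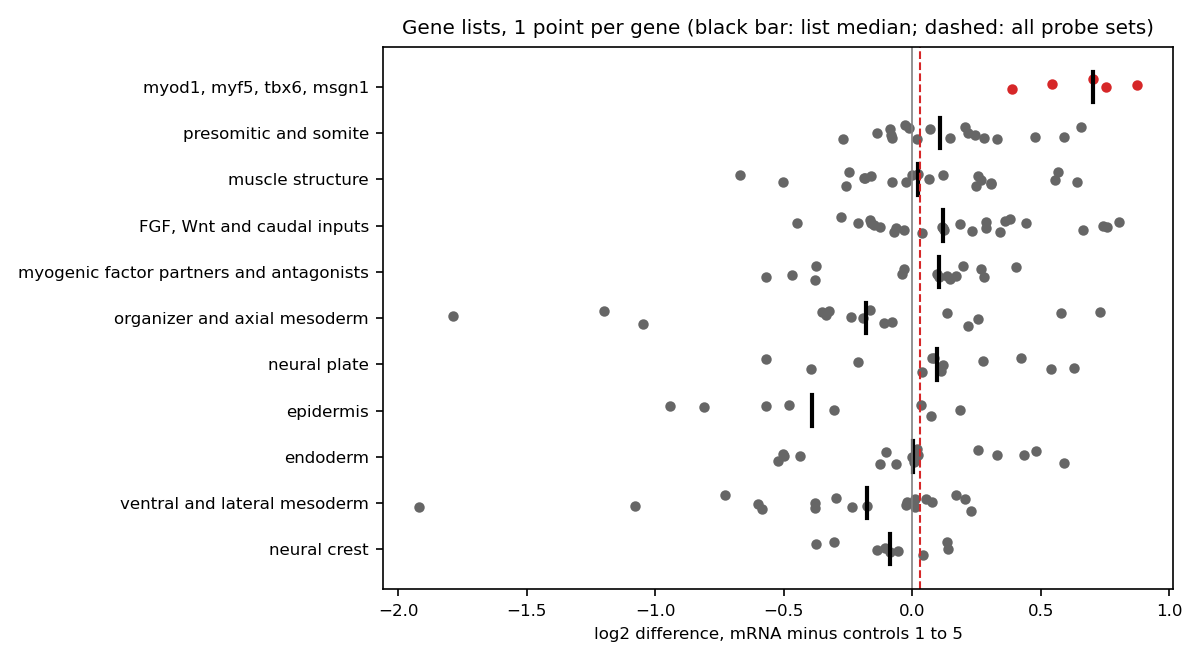
Log2 differences (horizontal axis) between mRNA arrays and controls 1 to 5, with 1 point per gene, in the member group (red) and 10 gene lists (grey); black bars are medians and the dashed line is the median of all probe sets tested, 0.03. The 5 members lie between 0.39 and 0.88, while the list medians lie between -0.39 and 0.12. Single list genes run from -1.92 (cebpa.L) to 0.80 (fgf20.L), so some lie within the range of the members.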

How the data were processed

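The deposited values are log2 expression values, 1 per probe set and array, made by the authors with GCRMA per the submitters' processing notes. Sources used here do not give its version or which arrays shared a run. Array number sets the precision, as there is no read depth. The tests left out 120 control probe sets, and 10435 probe sets above log2 4 in at least 5 arrays were tested with limma 3.58.1 in R 4.3.3 (lmFit, eBayes, Benjamini-Hochberg, threshold 0.05), after a test on simulated data. The first comparison used 10 arrays and 2 group means, the others all 20 arrays and 3 group means. Symbols came from the platform annotation, 2 of them updated through a gene table. Of 15491 gene probe sets 9304 had 1 symbol, 195 several and 5992 none. Correlations and exact permutation tests used Python 3.11.15 with scipy 1.17.1.

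The members and lists were chosen with earlier results of these data known. Named genes were every member and, for lists other than markers, up to 3 called genes per list, or the 2 with the smallest p. Of the marker lists together, the 3 genes with the smallest p in the first comparison were named. The lowest and highest list genes were named for the range. For each of the 4 genes, by its probe set with the highest mean, the 3 genes outside the members most like it by Pearson r were named. Where a gene had several probe sets, that with the highest mean stood for it. The lists were presomitic and somite; muscle structure; FGF, Wnt and caudal inputs; myogenic factor partners and antagonists; and markers of organizer and axial mesoderm, neural plate, epidermis, endoderm, ventral and lateral mesoderm, and neural crest. They share some genes.

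The numbers 1 to 5 were taken to pair mRNA arrays with controls, by the rule that each of 5 correlations exceeds 0.1. After removal of group means, arrays of the same number had correlations of 0.23 to 0.63. The labels state no pairing, and these correlations come from the same values as the blocked fits. Of the 5 mRNA arrays, 4 were most like the control of their own number. Alternatives covered the filter, scaling, variance prior, array weights, blocks, choice of controls and leaving out arrays.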

Additional observations from a re-analysis of the deposited data

Results flagged for a closer look

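Dixon's test was applied to 35 sets of 4 to 10 arrays, and chance alone marks about 1 such set in 20. The presomitic factor msgn1.L at 8.50 in control 3 stood apart from both controls 1 to 5 (8.50 to 10.04; gap 0.831 of the range) and all 10 controls (8.50 to 10.53; gap 0.63 of the range). Without that array the msgn1.L difference between mRNA arrays and controls 1 to 5 was 0.11 in place of 0.39. The tracer probe set stood apart in control 10 (2.89) among controls 6 to 10, whose others were at 13.84 to 14.51, and in morpholino 5 (14.82) among arrays labelled morpholino, whose others were at 2.80 to 2.95.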

How the results depend on the processing

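In the first comparison all 5 member differences kept their sign and kept an adjusted p above 0.05 in all 27 alternatives, from 0.04 to 1.12 over all members, with adjusted p from 0.0713 to 0.96. Called probe sets numbered 0, against 2 with arrays centred on bacterial control probe sets, 7 with the replicate block, 7 with the block and quantile normalization, 1393 with the block and bacterial centring (1384 lower), and 0 to 2 without 1 array or 0 to 5 with the block and without 1 pair. The combinations with the block were chosen after seeing the data. Against all controls mRNA counts were 0, but 6 with the stricter filter (above log2 5 in at least 10 arrays), 719 with bacterial centring, 1242 with array weights, 20 with a trended and robust prior, 3256 (with 2 members) against controls 6 to 10 alone, and 0 to 577 without 1 array (577 without control 1, 314 without control 4, 93 without mRNA 3, 4 without morpholino 1). There msgn1.L turned to -0.24 with bacterial centring and against controls 6 to 10, to -0.081 without control 3 and to -0.0018 without mRNA 2, with 0.19 the highest without 1 array.

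For arrays labelled morpholino the count was 0, but 2142 with the replicate block, which also leaves controls 6 to 10 without weight in the difference, 1875 against controls 1 to 5 alone without it, 495 without the 8 arrays, and 0 to 1 without 1 array. By the rule that each of 5 correlations exceeds 0.1, their numbers did not pair them with controls 1 to 5 or with mRNA arrays. With controls r was 0.06 to 0.28, over 0.1 in 4 of 5, and with mRNA arrays -0.09 to 0.24, over 0.1 in 3 of 5. Of the arrays labelled morpholino, 4 of 5 were most like the control of their own number, the same count as for mRNA arrays. Of the 160 member values 23 turned negative. With median centring myod1.L was at -0.012, myod1.S at -0.0045 and tbx6.L at -0.033; with bacterial centring these were at -0.10, -0.090 and -0.12, and msgn1.L at -0.0081. Against controls 6 to 10, or with the array set as a block, msgn1.L was at -0.17 and tbx6.L at -0.078. Without the 8 arrays myod1.L, myod1.S and tbx6.L were at -0.78, -0.85 and -0.040. Without 1 array the values reached -0.11 (myod1.L), -0.093 (myod1.S), -0.12 (tbx6.L) and -0.012 (msgn1.L) at the lowest, and 0.26, 0.27, 0.12 and 0.24 at the highest.

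Between the injections 1389 were called, but 2186 without a filter, 730 with bacterial centring, 2851 with array weights, 2885 with the replicate block, 0 relative to the own controls, 760 without the 8 arrays, and 314 to 1614 without 1 array (886, 455, 701 and 314 without mRNA 1, 2, 4 and 5, 523 and 737 without morpholino 3 and 4). Members called numbered 0, but 1 with median centring (myod1.L), with the replicate block (tbx6.L, adjusted p = 0.0367) and without the 8 arrays (myod1.S), and 0 to 1 without 1 array. There msgn1.L turned to 0.021 with quantile normalization, 0.029 with median centring and 0.56 relative to the own controls, and ran from -0.16 to 0.049 without 1 array. The change between myod1 copies was 0.27 to 0.42 without 1 array. Each copy has 1 probe set, so a mean over probe sets was not run. The cause of these changes was not tested.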

Other observations

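Within the groups of the first array set (controls 1 to 5 and mRNA 1 to 5), the SD between arrays was 0.58 for myf5.L, 0.49 for msgn1.L, 0.48 for myod1.L, 0.47 for tbx6.L and 0.31 for myod1.S, against a median of 0.29 over all probe sets tested. That of myf5.L exceeded the SD of 88.8% of probe sets tested and that of myod1.S 53.6%. In the 10 arrays labelled control alone, r was 0.72 for tbx6.L with msgn1.L, 0.68 for both myod1 copies with each other and 0.69 for myf5.L with myod1.L. Pairs of a paraxial with a myogenic factor ran there from -0.05 (msgn1.L with myod1.S) to 0.60 (myod1.L with tbx6.L). These values are given as a description.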
